A study of Mus musculus with 6 samples.

Results

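The nuclear genes of the mitochondrial respiratory chain were compared between livers of conditional Keap1 knockout mice and of genetic controls. Members were taken by symbol: every gene with a probe set of its own whose symbol began with Nduf, Uqcr, Cox4, Cox5, Cox6, Cox7, Cox8 or Atp5, and Sdha, Sdhb, Sdhc, Sdhd and Cyc1. This gave 91 of the 18193 genes with such a probe set, namely 42 of complex I, 4 of complex II, 9 of complex III, 19 of complex IV and 17 of complex V. These counts include 8 assembly factors of complex I and 7 tissue-restricted isoforms of complex IV. They also include 3 further genes, Ndufa4, Ndufa4l2 and Cox7a2l, called relatives here, although Ndufa4 is itself a complex IV subunit. All of these are described apart from the genes counted as subunits. The 3 knockout mice were Alb-Cre::Keap1(flox/-) and the 3 controls Alb-Cre:Keap1(flox/+), all males aged 9 weeks that had received only a vehicle of 10% DMSO, 10% Cremophor-EL and 80% PBS. Cre under the albumin promoter acts in hepatocytes, so a control hepatocyte in which it acted keeps only a wild-type Keap1 allele. In the knockouts the other allele is null in every cell, with or without Cre.

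The respiratory chain lies in the inner mitochondrial membrane. Complexes I and II pass electrons from NADH and succinate to ubiquinone, complex III passes them on to cytochrome c, complex IV reduces oxygen, and complex V uses the proton gradient built by complexes I, III and IV to make ATP. Most subunits are encoded in the nucleus, and the hepatocyte is a cell rich in mitochondria. KEAP1 directs the degradation of NRF2, a transcription factor whose gene is Nfe2l2. The names are easily confused: the nuclear respiratory factors NRF-1 (gene Nrf1) and NRF-2 (the GABP complex, with the subunit gene Gabpa), which are known to activate respiratory chain genes, are other proteins than NRF2.

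Each mouse was measured on 1 Affymetrix array, and the deposited values are linear signals with a trimmed mean of 500 on every array. The targeted gene went with the labels: Keap1 had signals of 326, 151 and 214 in the knockouts, against 786, 843 and 700 in the controls, a log2 difference of -1.74 (limma adjusted p = 0.0118). Its position relative to the deleted exons was not analysed here. Nqo1, a quinone reductase and textbook NRF2 target, rose 4.96-fold. Nfe2l2 itself fell, with 2222, 2899 and 2397 in the knockouts, against 3676, 4285 and 3912 in the controls (log2 difference -0.66, limma adjusted p = 0.0303). Of 12 NRF2 target genes tested, 9 rose and 0 fell, against 1.04% and 0.944% of all genes. The median log2 difference of the 12 was 1.21. This list was chosen with earlier results of these data known, so its counts are no independent check. Hepatocyte markers were abundant in every liver, and 0 of the 12 tested passed, although 10 lay above the controls and their summed signal was 298864 to 317262 in the knockouts, against 254040 to 295761 in the controls. The sum over 9 Kupffer cell and macrophage markers was 13176 to 17263 in the knockouts, against 9757 to 16761 in the controls. In RNA of whole liver, fewer cells of a type and less RNA per cell cannot be told apart.

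The respiratory chain genes stayed close to the control level in the Keap1 knockout livers. Of the 89 members bright enough to test, 0 passed the threshold of an adjusted p of 0.05 (limma, Benjamini-Hochberg adjustment over all genes tested), against 1.98% of all 13027 genes, of which 1.04% rose and 0.944% fell. Their adjusted p-values ran upward from 0.105. At an unadjusted p under 0.05 there were 8 members, or 8.99%, against 15.2% of all genes. The differences were small as well as uncalled: their log2 differences had a median of 0.07, against -0.02 over all genes, and the 95% interval of the difference lay within 1.5-fold either way for 79 members, or 88.8%, against 50.0% of all genes. These intervals are per gene and were not widened for the number of genes. Their width follows the standard error, whose median was 0.11 for the members and 0.17 over all genes. The share is not particular to the members: 71 of 76 mitochondrial ribosomal proteins also had intervals within 1.5-fold.

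Among the genes counted as subunits, without assembly factors, tissue isoforms and relatives (so without Ndufa4), 70 of 73 had a mean signal of at least 1000. All 70 had intervals within 1.5-fold. Their log2 differences ran from -0.12 to 0.31. These bounds hold for the deposited scaling. The number of these intervals within 1.5-fold was also 70 after quantile or cyclic loess normalization, but 66 when scaled on the hybridisation controls and 39 when each array was centred on its median. The 3 dim subunits were Ndufb1, Ndufb4 and Cox7c, each represented here by a weak probe set, and their intervals reached beyond 1.5-fold. So did those of Ndufaf5, Cox6a2, Ndufa4l2, Cox8c, Cox4i2, Cox6b2 and Cox7a1.

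**Figure D1:**
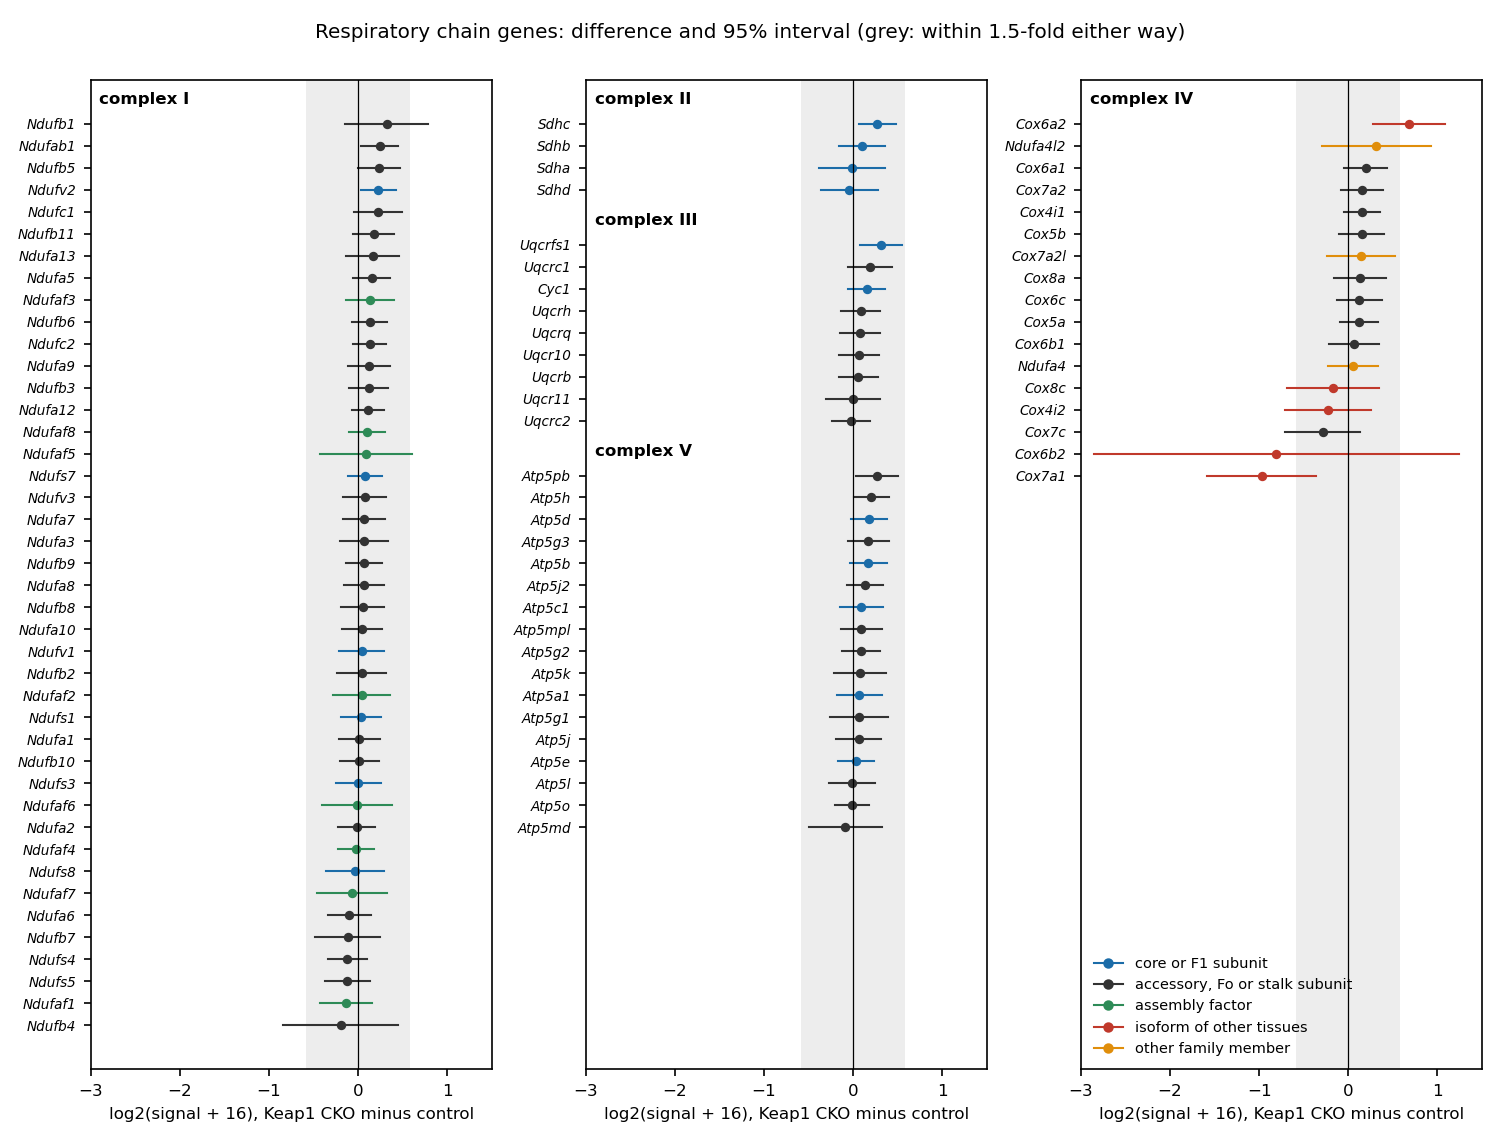
Log2 difference, knockout minus control, of each of the 89 members tested (points) with its 95% limma interval (bars), grouped by complex, and 1.5-fold either way marked. Most points lie just above 0 with intervals inside 1.5-fold, and the wide intervals belong mainly to dim probe sets and tissue isoforms.

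Most members lay slightly above the controls. The mean was higher in the knockouts for 67 members and lower for 22, or 75.3% above, against 47.2% of all genes. In 20 members, or 22.5%, the 3 knockout arrays did not overlap the 3 control arrays, against 21.3% of all genes. Of these, 18 lay higher and 2 lower, while over all genes 10.3% lay higher without overlap and 10.9% lower. The split was 9 higher and 6 lower after quantile normalization, where 21.9% of all genes did not overlap. It was 1 higher and 5 lower when scaled on the hybridisation controls, where 25.3% of all genes did not overlap. This lean toward the knockouts depended on the scaling, as set out with the arrays after the complexes.

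Complex I, the NADH dehydrogenase and entry point for electrons from NADH, had 42 members tested, of which 0 passed and 31 lay above the controls. Its 6 core subunits, which carry the flavin, the iron-sulfur clusters and the electron path, had a median log2 difference of 0.04. Its 28 accessory subunits had a median of 0.07 and its 8 assembly factors, which build the complex but are not part of it, a median of 0.01. The median of the whole complex was 0.07, but -0.09 after scaling on the hybridisation controls and 0.0022 and -0.0038 after quantile and loess normalization.

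Ndufab1, the mitochondrial acyl carrier protein and an accessory subunit, had signals of 6722, 7488 and 6739 in the knockouts, against 6185, 5861 and 5621 in the controls. The groups did not overlap, and the log2 difference was 0.24 ± 0.09 (standard error, limma adjusted p = 0.241). A dimmer probe set of Ndufab1 pointed the other way, with 679, 578 and 656 in the knockouts, against 1142, 1043 and 726 in the controls, a log2 difference of -0.57 (adjusted p = 0.174 over all probe sets). A bright probe set shared with Ndufab1-ps, with a mean signal of 6297, differed by 0.12. Dimmer ones still, with mean signals of 145.4, 136.6 and 100.6, differed by 0.34, -0.18 and -0.72. Over all its probe sets the arrays give no single direction for Ndufab1, although the bright ones lay above the controls.

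Ndufb1, an accessory subunit of the membrane arm, had the largest log2 difference in the complex, 0.32, with overlapping signals of 499, 338 and 529 in the knockouts, against 306, 433 and 336 in the controls (limma adjusted p = 0.506). Ndufb9, also of the membrane arm and the brightest member of the complex, had signals of 15167, 16508 and 15786 in the knockouts, against 16091, 15056 and 14226 in the controls. Its groups overlapped, and its log2 difference of 0.07 had a 95% interval of -0.14 to 0.27. Ndufb4 illustrates how the probe sets limit the reading. The probe set named for Ndufb4 alone had a mean signal of only 88.5 and a log2 difference of -0.20, whereas a bright one shared with its copies Ndufb4b and Ndufb4c had 7830, 8977 and 7568 in the knockouts, against 7252, 7158 and 6305 in the controls.

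Complex II, succinate dehydrogenase, also works in the citric acid cycle and has all its subunits encoded in the nucleus. Of its 4 subunits 0 passed, and 2 exceeded the controls. The median log2 difference was 0.04, but -0.14 without knockout 4 and -0.11 after scaling on the hybridisation controls. Sdhb, the iron-sulfur subunit, had signals of 11197, 12900 and 11333 in the knockouts, against 12642, 10245 and 10286 in the controls. The groups overlapped, and the log2 difference was 0.10 with a 95% interval of -0.16 to 0.36.

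Sdhc, a membrane anchor that helps bind ubiquinone, was read by 2 probe sets of nearly equal mean signal that disagreed. On the slightly brighter one the signals were 6656, 6296 and 5798 in the knockouts, against 5472, 4949 and 5075 in the controls, without overlap (log2 difference 0.27, limma adjusted p = 0.204). On the other they were 5217, 5533 and 5082 in the knockouts, against 6912, 6030 and 4907 in the controls, with overlap (log2 difference -0.16). Without any 1 of the knockout arrays the second probe set became the brighter and the sign for Sdhc turned.

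Sdha, the flavoprotein, held the smallest adjusted p of any member probe set. Its dimmest tested probe set had 162, 210 and 158 in the knockouts, against 360, 323 and 268 in the controls, a log2 difference of -0.79 (limma adjusted p = 0.0931 over all probe sets). The 2 bright Sdha probe sets, with mean signals of 11130 and 6319, differed by -0.01 and -0.14 and their groups overlapped. Sdha was named here after its values were seen.

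Complex III hands electrons from ubiquinol to cytochrome c. Of its 9 members 0 passed and 8 exceeded the controls; the median log2 difference was 0.07 and became -0.08 after scaling on the hybridisation controls. Uqcrfs1, the Rieske iron-sulfur protein that takes the first electron from ubiquinol, had the largest difference of any bright subunit. Its signals were 9529, 10803 and 8862 in the knockouts, against 7428, 8339 and 7667 in the controls, so every knockout lay above every control. The knockouts averaged 9731 ± 986 and the controls 7812 ± 472 (SD, 3 mice each), a log2 difference of 0.31 ± 0.10 (standard error, limma adjusted p = 0.189).

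Uqcrc1, a large matrix-side subunit, had signals of 8624, 10589 and 8763 in the knockouts, against 8767, 7747 and 7938 in the controls. The groups overlapped by 1 control array (log2 difference 0.19, limma adjusted p = 0.452). Uqcrb, a small subunit near the ubiquinone site and the brightest member of the complex, had 27143, 28048 and 25009 in the knockouts, against 26743, 26695 and 23633 in the controls. Its log2 difference was 0.06, with a 95% interval of -0.16 to 0.28, and it turned negative after quantile, loess and hybridisation control scaling.

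Complex IV, cytochrome c oxidase, is the complex whose nuclear subunits occur in tissue-specific isoforms. Of its 17 members tested 0 passed and 12 lay above the controls. The 9 subunits counted here as the general or liver form, without Ndufa4, had a median log2 difference of 0.13 and 8 lay above the controls. Ndufa4 and Cox7a2l, kept apart from these with the relatives, had log2 differences of 0.05 and 0.14 (limma adjusted p = 0.889 and 0.750). On dimmer probe sets Cox7a2l differed by 0.12 and by 0.33. The 5 isoforms of other tissues that could be tested had a median of -0.23 and 1 lay above the controls. The median of the whole complex was 0.12, but -0.0015 after quantile normalization and -0.03 after scaling on the hybridisation controls.

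Cox7a2, the form of subunit 7A found in liver and the brightest member of the complex, had signals of 24632, 24420.0 and 21917 in the knockouts, against 21782, 22882 and 19096 in the controls. The groups overlapped, and the log2 difference was 0.16 with a 95% interval of -0.08 to 0.39. Cox7a1, the form of the same subunit known from heart, skeletal muscle and brown fat, had signals of 61.2, 55.0 and 42.7 in the knockouts, against 130, 115 and 112 in the controls. Every knockout lay below every control, the knockouts averaging 53.0 ± 9.42 and the controls 119 ± 9.63 (SD, 3 mice each). The log2 difference was -0.97 ± 0.27 (standard error), its 95% interval -1.59 to -0.36, and the test was not passed (limma adjusted p = 0.126). It was passed in the fit without the mean-variance trend (adjusted p = 0.0494), and without any 1 control the probe set fell below the filter and was not tested. The lowest mean signal of any gene tested was 79.6, and every knockout lay below it. Cox7a1 was thus bright enough to test only through its controls, so its p-values and interval are no support for a fall.

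Cox6a2, the heart and skeletal muscle form of subunit 6A, lay on the other side. Its signals were 257, 237 and 300 in the knockouts, against 144, 162 and 167 in the controls, and every knockout lay above every control. The knockouts averaged 265 ± 32.4 and the controls 158 ± 12.1 (SD, 3 mice each), a 1.61-fold difference, with a log2 difference of 0.68, a standard error of 0.18 and a 95% interval of 0.28 to 1.09 (limma adjusted p = 0.105). After quantile normalization the adjusted p was 0.0465 and after cyclic loess 0.0471, so under these settings Cox6a2 passed. Cox6a1, the form found in liver, had a log2 difference of 0.20 (adjusted p = 0.429). It was named for this pairing after its values were seen.

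Muscle and fat markers were measured beside these isoforms. Of 11 skeletal and heart muscle markers 2, Ckm and Actc1, were bright enough to test and 0 passed, while the other 9 had mean signals of 11.2 to 70.4. The summed signal of the 11 was 575 to 598 in the knockouts, against 570 to 779 in the controls. Of 7 fat cell markers, 5 had a probe set of their own, 2 were tested and 0 passed. The sum of the 5 was 845 to 976 in the knockouts, against 760 to 773 in the controls. Adipoq lay at 24.6 to 35 in the knockouts, against 8.2 to 60 in the controls. What part other cell types have in the isoform signals was not tested.

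**Figure D2:**
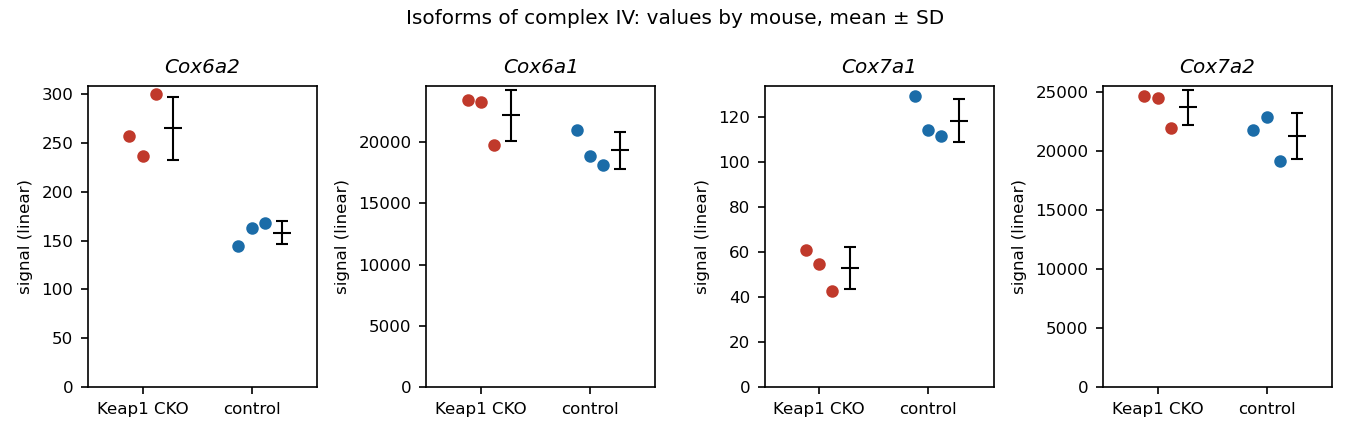
Signal (linear axis from 0) of the muscle forms Cox6a2 and Cox7a1 and of the liver forms Cox6a1 and Cox7a2, 1 point per mouse, knockouts left of controls, with the mean and SD of the 3 mice of a group as a tick and bar. The knockout points of Cox6a2 lie above and those of Cox7a1 below the control points, and those of the liver forms overlap.

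In the other tissue isoforms the groups overlapped. Cox6b2, known from testis, had 364, 61.3 and 109 in the knockouts, against 87.9, 135 and 1238 in the controls. The log2 difference of -0.81 rested on control 3 and was 0.30 without that array. Knockout 3 also lay well above the other knockouts. Cox8c, likewise known from testis, had 1719, 1495 and 2777 in the knockouts, against 2033, 1861 and 2704 in the controls, with overlap (log2 difference -0.17, limma adjusted p = 0.782). A second Cox8c probe set had a mean signal of only 238.5, against 2098 for this one. Its signals ran from 31.4 to 482 and its log2 difference was 0.34, so the level of Cox8c is uncertain.

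Cox4i2, a form of subunit 4 known from lung and from cells short of oxygen, had 127, 106 and 132 in the knockouts, against 158, 146 and 132 in the controls. The log2 difference of -0.23 had an interval of -0.71 to 0.26. Ndufa4l2, a relative of the complex IV subunit Ndufa4 known to be induced by HIF1, had 129, 125 and 182 in the knockouts, against 146, 116 and 82.3 in the controls. Neither of these dim genes separated the groups. Cox7b2 and Cox8b were too dim to test: Cox7b2 had at most 21.1 in the knockouts and 27.7 in the controls, and Cox8b at most 46.2 in the knockouts and 51.2 in the controls.

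Complex V, the ATP synthase, had 17 members tested, of which 0 passed and 14 lay above the controls. The 5 members of the catalytic F1 head had a median log2 difference of 0.09 and all 5 lay above the controls. The 12 members of the membrane part and stalks had a median of 0.08. The median over the complex was 0.09, but -0.06 after scaling on the hybridisation controls.

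Atp5pb, the b subunit of the peripheral stalk, had signals of 20532, 21598 and 17627 in the knockouts, against 17143, 16779 and 15553 in the controls. The groups did not overlap (log2 difference 0.27, standard error 0.10, limma adjusted p = 0.264). Atp5h, the d subunit of the same stalk, had 17256, 17787 and 16615 in the knockouts, against 15829, 14596 and 14451 in the controls, again without overlap (log2 difference 0.20, adjusted p = 0.312). On a dimmer probe set of each gene the groups overlapped, with log2 differences of 0.13 for Atp5pb and 0.12 for Atp5h. Atp5g3 encodes the c subunit of the rotating ring and was the brightest member of the complex. It had 23800.0, 25678 and 22205.2 in the knockouts, against 22204.8, 21928 and 19509 in the controls. The lowest knockout and the highest control were almost equal, and the log2 difference was 0.17 with a 95% interval of -0.06 to 0.40 (adjusted p = 0.460).

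The members deviated together from array to array. Of the 89 members, 43 were highest in knockout 4 and 46 were lowest in control 3. The median deviation of the members from their own means was 0.05, 0.11 and -0.03 in knockouts 3, 4 and 5, against 0.04, -0.04 and -0.14 in controls 1, 2 and 3, on the log2 scale. The groups overlapped, since control 1 lay above knockout 5. The range of the arrays themselves moved in the same order at both ends: knockout 4 had the highest 95th percentile of signal, 3536, and control 3 the lowest, 3231. Their median signals went the opposite way, 114 in knockout 4 and 146 in control 3.

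**Figure D3:**
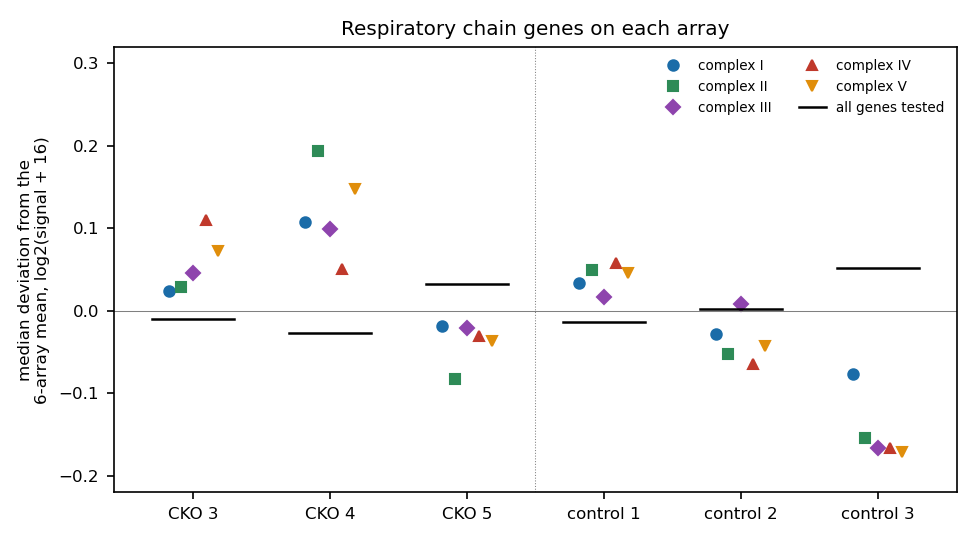
Median deviation of the members of each complex (symbols) and of all genes tested (lines) from their own mean over the 6 arrays, on the log2 scale, knockouts 3 to 5 left of controls 1 to 3. Every complex is lowest in control 3, all but complex IV are highest in knockout 4, and on each array the median of all genes lies on the other side of 0 from most complexes.

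The direction of this shared shift depended on the scaling. The members' median log2 difference was 0.07 as deposited, 0.0051 after quantile normalization, 0.0019 after cyclic loess, 0.17 with median centring, and -0.08 when scaled on the hybridisation controls. Scaling on the hybridisation controls moved the median of all genes to -0.17, and relative to that median the members stood at 0.09, as they did with the deposited values. The share of members above the controls was 53.9% after quantile normalization and 51.7% after loess, against 51.3% and 51.5% of all genes. Under hybridisation control scaling 20 members lay above the controls and 69 below, or 22.5% above, against 25% of all genes. Leaving out arrays moved the difference between the members' median and that of all genes too: it was 0.04 without knockout 4 and 0.03 without control 3, and 0.16 without knockout 5 or without control 1.

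**Figure D4:**
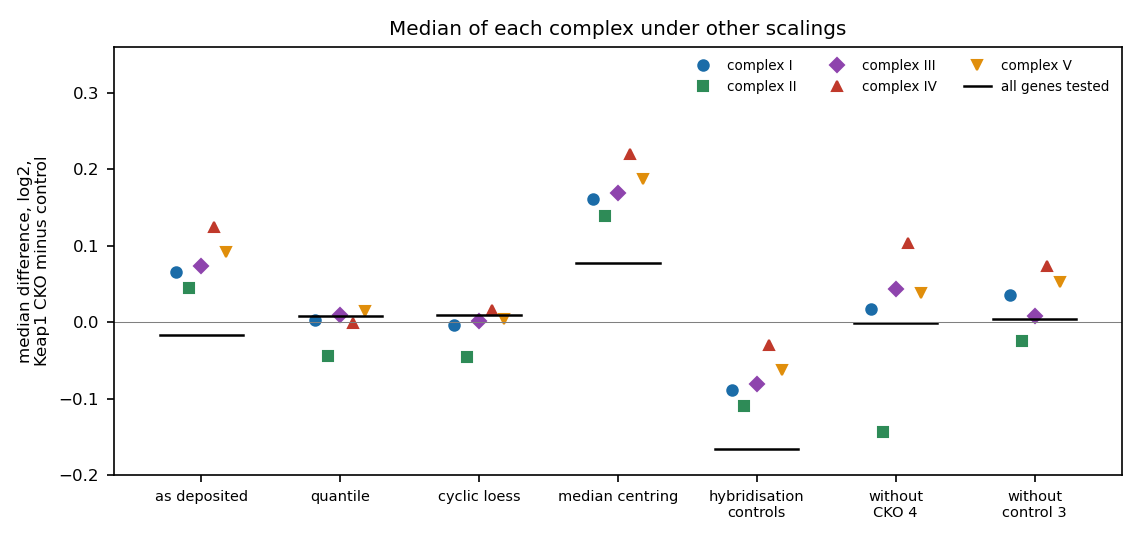
Median log2 difference, knockout minus control, of the members of each complex (symbols) and of all genes tested (lines), as deposited, under 4 other scalings and without knockout 4 or control 3. All 5 complexes lie above the line with the deposited values, median centring and hybridisation control scaling, and near or below it after quantile or loess normalization.

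The members were also read by 180 probe sets with a single symbol, of which 165 were bright enough to test. Of these 0 passed over the 27022 probe sets tested, against 1.52% of all probe sets, and 13 had an unadjusted p under 0.05. In 18 of the 48 members with more than 1 tested probe set, the probe sets differed in sign.

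Promoter sequences were searched for the motifs of the factors named above, because NRF2 is the known substrate of KEAP1, while respiratory chain genes are known for NRF-1 and GABP sites. RefSeq windows of 250 bases before the gene start (GRCm38.p6) were at hand for 74 of the 91 members, 5 of them with several windows. Both strands were searched for GCGCNTGCG (NRF-1), for CCGGAAG (GABP and other ETS factors) and for TGACNNNGC (the antioxidant response element bound by NRF2). A window with matches to several motifs, overlapping or not, was counted under each. The windows that follow show the motifs in 3 members, chosen after their values were seen, and then the windows of the subunit 7A pair. Capitals mark a match on either strand, and each window is written along its gene.

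The Ndufv2 window (chr17:66101560-66101809, minus strand) held an antioxidant response element match on the opposite strand, 59 bases before the start.
Ndufv2: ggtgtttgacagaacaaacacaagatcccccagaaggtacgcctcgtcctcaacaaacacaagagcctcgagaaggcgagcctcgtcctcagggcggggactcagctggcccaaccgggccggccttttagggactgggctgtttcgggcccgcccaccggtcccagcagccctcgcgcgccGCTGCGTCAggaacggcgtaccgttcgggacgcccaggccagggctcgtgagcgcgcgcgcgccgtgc
The Ndufs5 window (chr4:123718187-123718436, minus strand) held such a match 219 bases before the start and an NRF-1 match 88 bases before it.
Ndufs5: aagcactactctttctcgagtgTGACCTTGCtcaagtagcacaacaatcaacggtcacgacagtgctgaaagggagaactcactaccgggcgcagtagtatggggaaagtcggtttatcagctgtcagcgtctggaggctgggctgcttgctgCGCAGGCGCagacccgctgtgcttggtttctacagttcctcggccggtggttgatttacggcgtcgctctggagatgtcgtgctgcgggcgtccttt
The Sdhd window (chr9:50603850-50604099, minus strand) held an NRF-1 match and, nearer the start, an ETS match.
Sdhd: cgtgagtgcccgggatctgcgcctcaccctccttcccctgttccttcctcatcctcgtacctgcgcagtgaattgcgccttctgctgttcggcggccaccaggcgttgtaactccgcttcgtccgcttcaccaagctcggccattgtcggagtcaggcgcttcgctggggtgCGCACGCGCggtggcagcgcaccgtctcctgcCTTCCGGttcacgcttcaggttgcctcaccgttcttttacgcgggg
The Cox7a2 window (chr9:79759854-79760103, minus strand) held none of the 3 motifs.
Cox7a2: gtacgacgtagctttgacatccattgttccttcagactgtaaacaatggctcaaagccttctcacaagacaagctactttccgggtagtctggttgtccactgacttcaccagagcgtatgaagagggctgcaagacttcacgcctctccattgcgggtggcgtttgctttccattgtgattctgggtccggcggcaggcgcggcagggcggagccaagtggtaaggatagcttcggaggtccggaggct
The Cox7a1 window (chr7:30183921-30184170, plus strand) held none either.
Cox7a1: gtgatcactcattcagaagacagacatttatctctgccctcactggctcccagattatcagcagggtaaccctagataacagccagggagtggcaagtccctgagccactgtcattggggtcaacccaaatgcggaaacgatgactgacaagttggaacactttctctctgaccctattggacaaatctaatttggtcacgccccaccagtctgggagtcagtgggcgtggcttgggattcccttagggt

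The values of these members were as follows. Ndufv2, a flavoprotein-side core subunit with an iron-sulfur cluster, had signals of 9400, 9747 and 9407 in the knockouts, against 8381, 7540 and 8479 in the controls. Its groups did not overlap (log2 difference 0.23, limma adjusted p = 0.256). Ndufs5, an accessory subunit, had 3296, 4197 and 3885 in the knockouts, against 4316, 4183 and 3825 in the controls, with overlap (log2 difference -0.12, adjusted p = 0.665). Sdhd, the other membrane anchor of complex II, has no antioxidant response element match in its window and had a log2 difference of -0.04 (adjusted p = 0.922).

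Over all 74 members with a window, 8, or 10.8%, held TGACNNNGC, against 13.8% of the 10515 tested genes with a window and 11.5% of all 27025 genes with one. These were Atp5o, Ndufa1, Ndufa7, Ndufa9, Ndufaf3, Ndufaf4, Ndufs5 and Ndufv2. Their median log2 difference was 0.04, and 5 of 8 lay above the controls, while the 64 tested members without a match had a median of 0.08 and 50 lay above. The NRF-1 motif was found in 16 members, or 21.6%, against 11.6% of tested genes and 5.88% of all genes. These 16 had a median of 0.04 and 9 lay above the controls, against 0.08 and 46 of the 56 tested members without it. The ETS motif was found in 14, or 18.9%, against 14.1% of tested genes and 7.83% of all genes. These 14 had a median of 0.05 and 10 lay above, against 0.09 and 45 of the 58 without it. For each motif the median was the lower with a match, but the sets share genes, such as Ndufs5. The standard error of a single member's difference had a median of 0.11. Whether a motif bears on the differences was not tested. The 2 windows of subunit 7A differed in base make-up: the observed over expected CpG ratio was 0.244 for Cox7a1 and 0.751 for Cox7a2, with a median of 0.783 over the members. Only Cox8b among the members had a lower ratio than Cox7a1.

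Genes that work with the chain were read from lists chosen by function. The counts that passed in each list stand beside 1.98% of all genes tested. Among 35 assembly factors of complexes I to V, 1 passed, and the list had a median log2 difference of 0.02. The 8 Ndufaf assembly factors counted among the members are not in this list. Coa6, an intermembrane space protein needed for copper delivery to complex IV, rose 1.37-fold. Its signals were 3423, 3574 and 3393 in the knockouts, against 2473, 2606 and 2512 in the controls, so the groups were far apart relative to their spread (log2 difference 0.45, limma adjusted p = 0.0342). The call was lost when any 1 array was left out (adjusted p = 0.0808 to 0.133), after median centring (0.0931), after hybridisation control scaling (0.222) and in the fit without the trend (0.129). The log2 difference itself was 0.43 to 0.47 without 1 array, 0.55 after median centring and 0.30 after hybridisation control scaling.

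Among 12 genes of cytochrome c and ubiquinone synthesis, 1 passed, and the median was -0.03. Coq7, the hydroxylase of a late step of ubiquinone synthesis, rose 1.53-fold, with 3614, 3746 and 3322 in the knockouts, against 2565, 2092 and 2326 in the controls (log2 difference 0.61, limma adjusted p = 0.0249). All knockouts lay above all controls. Of the fits without 1 array, only the fit without control 1 kept this call, and it was also lost after median centring (0.0590), after hybridisation control scaling (0.0812) and without the trend (0.108). The log2 difference was 0.54 to 0.69 without 1 array, 0.71 after median centring and 0.46 after hybridisation control scaling.

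Among 9 transport genes, namely 6 carriers and uncoupling proteins of the inner membrane and the 3 Vdac channels of the outer membrane, 1 passed. Slc25a30, a mitochondrial carrier first described in kidney, fell 1.88-fold. It had 481, 382 and 490 in the knockouts, against 863, 821 and 893 in the controls, with a log2 difference of -0.91 (limma adjusted p = 0.0141). The call was lost only without control 1, and there barely, at an adjusted p of 0.05002. The other 8 genes of the list did not pass.

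The other lists held no call. Among 21 regulators of mitochondrial biogenesis 0 passed, and the median was 0.0083. The largest difference was that of Ppargc1a, the coactivator known to drive mitochondrial gene expression, with 187, 193 and 262 in the knockouts, against 278, 306 and 256 in the controls (log2 difference -0.38, limma adjusted p = 0.384). Nrf1 and Gabpa, which encode the factors of the motifs above and were named for that reason, had log2 differences of -0.27 and 0.0096 (adjusted p = 0.504 and 0.980). Among 17 genes of pyruvate oxidation and the citric acid cycle 0 passed (median 0.05), the largest difference being -0.37 for Dlat, the acetyltransferase of pyruvate dehydrogenase.

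Among 9 genes whose proteins feed electrons into the chain by other routes, at ubiquinone or, for Suox, at cytochrome c, 0 passed (median -0.10). Gpd2, the mitochondrial glycerol 3-phosphate dehydrogenase, had 1912, 3014 and 1682 in the knockouts, against 3837, 3311 and 3052 in the controls. All knockouts lay below all controls (log2 difference -0.66, limma adjusted p = 0.161). Among 76 mitochondrial ribosomal proteins 0 passed (median 0.02), and Mrpl11, of the large subunit, was nearest, at a log2 difference of 0.49 (adjusted p = 0.0744). At an unadjusted p under 0.05, where 15.2% of all genes lay, the lists held 7 of 35 assembly factors, 2 of 12 genes of cytochrome c and ubiquinone synthesis, 2 of 9 transport genes and 2 of 21 biogenesis regulators. They also held 1 of 17 citric acid cycle genes, 2 of 9 genes of other electron routes and 10 of 76 ribosomal proteins.

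Of the subunits encoded in mitochondrial DNA, 1 was measured by a probe set of its own. ND5, a proton-pumping subunit of complex I, had 32245, 32405 and 29870.0 in the knockouts, against 28431, 28054 and 25696 in the controls. The groups did not overlap (log2 difference 0.20, limma adjusted p = 0.344), and the difference lay within the range of the bright nuclear subunits.

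**Figure D5:**
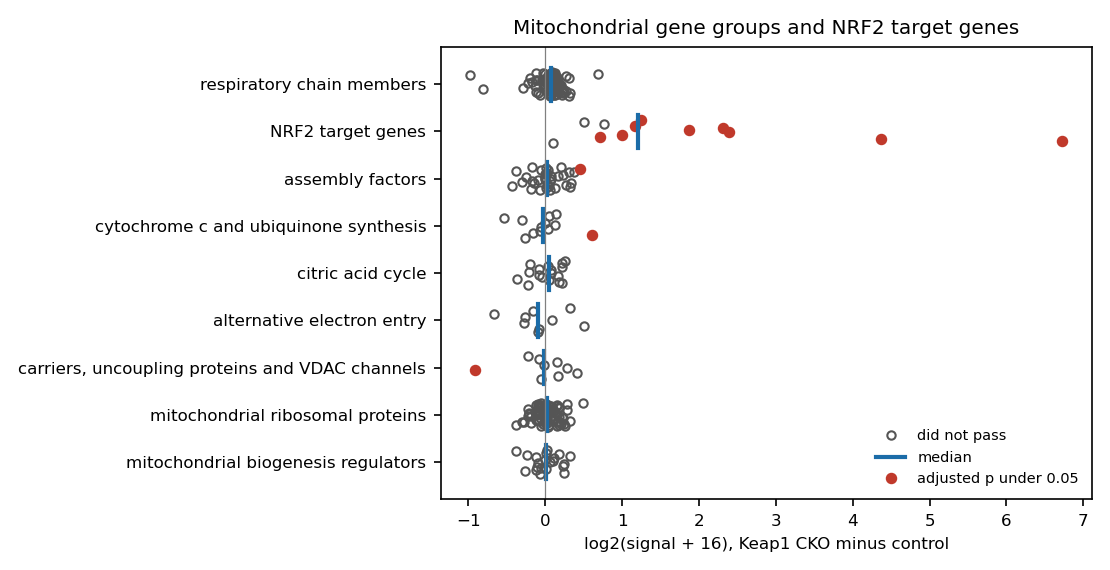
Log2 difference, knockout minus control, of each respiratory chain member and of each gene of the related lists (circles, filled where the gene passed), with the median of each group as a bar. Coa6, Coq7 and Slc25a30 are the genes plotted that passed outside the NRF2 target list, whose median lies at 1.21.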

How the data were processed

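Whole-liver RNA of 6 mice was hybridised to single-colour Affymetrix arrays. The deposited values are linear array intensity, with a number for each probe set on each array. Per the labels, cRNA was made from a T7-oligo(dT) primer. The trimmed mean of the authors' values was 500 on every array. The sources used here name neither the software that summarised the probes nor a genome build.

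From the intensity, log2(signal + 16) was computed. Probe sets with 1 symbol in the platform annotation whose mean was at or above the 40th percentile were tested, with the brightest per gene. Knockouts were set against controls in a linear model over all genes (R 4.3.3 and limma 3.58.1, functions lmFit and eBayes, trend on, two-sided, threshold 0.05), which also gave the 95% intervals. A gene "passed", "rose" or "fell" only past that threshold. The steps were tested on simulated data. Symbols are those of the array annotation. The deposited scaling sets array averages equal, so it hides any change in total RNA per cell. The number of arrays limits the precision. Each label gives 1 mouse, so p-values measure the spread between mice.

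The members and lists were chosen with earlier results of these data known, so no test over a list was made. Named members are the 2 with the largest difference and the brightest of each complex, tissue isoforms, Ndufa4l2 and members with probe sets of opposite sign of which 1 differs by at least 0.5. Each related list gives its genes that passed or its largest difference. The closing section gives the alternatives: filters, offsets, normalizations, variance models, array weights, probe set choice and leaving out each array. Batches were not analysed here.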

Additional observations from a re-analysis of the deposited data

How the results depend on the processing

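No paired analysis was possible because the groups share only the replicate number 3. Members passing numbered 1 after quantile normalization and cyclic loess (Cox6a2) and without the trend (Cox7a1), and 0 otherwise, against 0 with the deposited scaling. Cox7a1 was bright enough to test only through its controls. All genes passing numbered 258, but 77 without the trend and 94 to 173 without 1 array, since fewer arrays entered. Members without overlap numbered 20, but 10 after median centring, 6 after hybridisation control scaling and 13 without probe sets ending in _x_at or _s_at, where fewer members were tested; without 1 array they numbered 22 to 38, as fewer arrays overlap less. The highest counts were without knockout 5 (38) and control 1 (32). Over all genes the share without overlap was 21.3%, 20.2% after median centring and 25.3% after hybridisation control scaling. It was 21.3% without probe sets ending in _x_at or _s_at, and 28.2% to 33.8% without 1 array.

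Median differences of complexes I and IV were 0.0022 and -0.0015 after quantile normalization and -0.0038 and 0.0159 after loess. Median centring gave 0.1605 for complex I, 0.1690 for complex III, 0.2197 for complex IV and 0.1690 for all members. Hybridisation control scaling gave -0.0891, -0.1102, -0.0806, -0.0300 and -0.0628 for complexes I to V and -0.0806 for all members. Complex II ranged from -0.1432 (without knockout 4) to 0.1446 (without control 1) when 1 array was left out. Of all genes passing, the share higher was 52.3%, but 64.9% after median centring and 25% after hybridisation control scaling.

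Signs turned for Cox7a2 (-0.0015, quantile), Ndufb9 (-0.0382 quantile, -0.0389 loess, -0.0889 hybridisation controls), Uqcrb (-0.1141, -0.0703 and -0.0968 likewise) and Sdhb (-0.0558, hybridisation controls). In the mean over probe sets Cox8c gave 0.0848 and Ndufab1 -0.1755. Leaving out probe sets ending in _x_at or _s_at gave Ndufab1 -0.5715 and Sdhc -0.1593. Without 1 array, Sdhc ranged from -0.1938 to 0.3154 (negative without each 1 of the knockouts), Cox8c from -0.4336 to 0.0097 (positive without knockout 4), Cox6b2 from -1.4981 to 0.2986 (positive without control 3) and Uqcrb from -0.0009 (without control 3) to 0.1053. Why these signs turned was not tested, except where another probe set took over. Dim probe sets limit what can be said of the tissue isoforms.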
